A study of Mus musculus with 12 samples.

Results

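The 189 genes described here are mouse zinc finger genes whose symbol is Zfp followed by a number. They were chosen by 2 criteria: the form of the symbol in the deposited count table, with Zfp42 and Zfp57 left out, and a summed count of at least 300 over all 12 libraries. The table held 327 such symbols, so 138 fell below the minimum, out of 19654 genes with a usable count in every library. Just outside the minimum lay Zfp607 with 298 counts and Zfp953 and Zfp948 with 299 each, and just inside lay Zfp90 with 302, Zfp182 with 310 and Zfp53 with 311. The summed count selected the members, so their abundance is given below as a description. The sum pools all groups and uses no contrast, but it is made of the same counts as the comparisons. If every library stood at the level of a member's lowest group, 19 members would sum to less than 300, and these were included through their higher groups. Of the members called below, Zfp362, Zfp523, Zfp40, Zfp770, Zfp936, Zfp771 and Zfp185 are among the 19. All 189 members passed the filter on low counts, with 302 to 13757 counts each (median 720).

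The cells were CJ9, a line of mouse embryonic stem cells, after 5 days of culture under conditions that direct them to endoderm or to mesoderm. Both wild type (WT) cells and arid4b∆ cells, which the labels give as a deletion of Arid4b, were used. The 4 groups are WT endoderm, arid4b∆ endoderm, WT mesoderm and arid4b∆ mesoderm, with 3 libraries of total RNA in each. The labels do not say whether the arid4b∆ cells are a single clone, nor whether the 3 libraries of a group are separate cultures, so each p-value reflects library-to-library spread, which may be technical.

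Zinc finger proteins of this kind read DNA through tandem fingers, each a short loop held by 2 cysteines and 2 histidines around a zinc ion. Many carry a KRAB box at their start, which recruits the corepressor Trim28 and through it the histone methyltransferase Setdb1, and such proteins silence transposable elements and imprinted loci in embryonic stem cells. Others lack the box and act as activators, as subunits of chromatin complexes, or on RNA and ribosomes. Arid4b belongs to the SIN3 histone deacetylase complex, which removes acetyl groups from histones at promoters.

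Translation of the annotated coding sequences gave a KRAB A box in 90 members and none in 98. Zfp862, annotated as a pseudogene, had no coding sequence to translate. The box was found by sequence pattern, which misses diverged boxes. Members held 0 to 33 fingers (median 11), with a median of 13 among those with the box and 7.5 among those without. Zfp462 held the most, 33, and 13 members held none of the searched spacing, among them Zfp36, Zfp704 and Zfp608. Only fingers with 2 residues between the cysteines and 12 between the second cysteine and the first histidine were counted, which leaves out other spacings.

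Apart from Rn45s, the ribosomal RNA precursor, each library held 1949299 to 6678893 counts, of which 8496 to 27043 fell on the members. Each member had at least 8 counts in every library. Arid4b itself was counted at 41.1 ± 3.98 CPM in WT endoderm and 46.3 ± 4.29 in arid4b∆ endoderm, and at 42.1 ± 4.78 in WT mesoderm and 44.7 ± 2.99 in arid4b∆ mesoderm (mean ± SD, n = 3), so its summed reads do not check the genotype labels. CPM are counts scaled to a common library size. Of the 7 endoderm markers, 6 were called higher in WT endoderm than in WT mesoderm, and their summed level was 109 to 159 CPM in WT endoderm and 7.10 to 16.03 CPM in arid4b∆ endoderm, beside 14.0 to 19.6 CPM in WT mesoderm. Summed mesoderm markers, of which Hand1 was too low to test, were at 227 to 477 CPM in WT mesoderm and 24.4 to 34.8 CPM in arid4b∆ mesoderm. In WT endoderm the sum was 239 to 262 CPM, within the WT mesoderm range, with members on both sides. T was at 46.5 CPM in WT endoderm and 220 in WT mesoderm (log2 -2.27) and Mesp1 was also lower in WT endoderm (-2.85), while Eomes, which endoderm precursors also express, was higher there (1.04), and the other 3 tested did not pass. Among 7 pluripotency markers, Nanog and Tdgf1 were called lower and Sox2 and Zfp42 higher in arid4b∆ endoderm, and Nanog lower and Sox2 higher in arid4b∆ mesoderm. Their sum, 550 to 570 CPM in WT endoderm and 364 to 415 in arid4b∆ endoderm, follows mainly Tdgf1, at 195 and 39.4 CPM. The Zfp42 call rests on few reads, 9 counts in all WT endoderm libraries and 40 in the arid4b∆ ones. Of 8 neural markers, Sox3 was called higher in arid4b∆ cells in endoderm (log2 0.92) and in mesoderm (0.69). Nes, Tubb3 and Ncam1 passed in neither genotype comparison, and Sox1, Pax6, Hes5 and Zic1 were too low to test. In such bulk samples, fewer cells of a type and less RNA per cell cannot be told apart. Fibroblast and feeder markers, of which 9 of 12 could be tested, summed to 103 to 178 CPM in WT endoderm, 155 to 401 in arid4b∆ endoderm, 134 to 240 in WT mesoderm and 166 to 345 in arid4b∆ mesoderm. In each group the highest of these sums was that of library 1. Dcn, Lum and S100a4 were too low to test, and Lum and S100a4 had 0 counts in WT endoderm. Among the 9, 5 were called higher in arid4b∆ endoderm, and 1 was called higher and 1 lower in arid4b∆ mesoderm. What part these marker differences have in the results below was not tested.

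Promoter sequence was examined because members of this family moved in both directions. In the RefSeq promoter table for GRCm38.p6, 149 of the 189 members had an entry under their symbol. The 250 bases upstream of the most upstream start that the table lists for a gene held a median of 11 CG dinucleotides in these members, against 6 over 27025 genes. The median was 8 for members with a KRAB box and 14.5 for those without. At least 10 CG were found in 37.3% of the former, 79.7% of the latter and 38.2% of all genes. The letters ACTACAA, searched as 1 form of a Zfp143-type site, occurred on either strand in 10 of 149 members (6.71%) and 2.97% of all genes. The TCF/LEF letters CTTTGAT occurred in 11 (7.38%) against 3.26%, the T-box letters AGGTGTG in 6 (4.03%) against 5.18%, and the interferon response element (GAAA, any 2 bases, GAAA) in 2 (1.34%) against 3.05%. None of these motifs contains another, and neighbouring members may share sequence by duplication, so the shares are descriptions. The 27025 genes were not limited by their counts in these libraries, while each member had a summed count of at least 300. What part this selection has in the CG and motif differences was not tested. The 4 windows below belong to Zfp523, which fell in both lineages, Zfp423, which fell in mesoderm, Zfp281, which rose in mesoderm, and Zfp534, a member with a KRAB box that rose in endoderm. Each is printed 5′ to 3′ on the strand of its gene, with CG dinucleotides in capitals. Zfp523 lies at chr17:28176946-28177195 on the + strand, Zfp423 at chr8:87959596-87959845 on the - strand, Zfp281 at chr1:136624651-136624900 on the + strand and Zfp534 at chr4:147702632-147702881 on the - strand, all in GRCm38.p6. The annotated span of Zfp423 extends further upstream, to 87962053, so its window lies inside the gene, before a start other than the outermost.
Zfp523: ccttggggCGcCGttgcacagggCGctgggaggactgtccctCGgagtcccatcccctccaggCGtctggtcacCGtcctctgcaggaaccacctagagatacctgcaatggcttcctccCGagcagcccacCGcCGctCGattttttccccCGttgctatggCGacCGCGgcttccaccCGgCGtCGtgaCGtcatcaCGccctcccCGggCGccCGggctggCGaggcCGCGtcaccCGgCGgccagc
Zfp423: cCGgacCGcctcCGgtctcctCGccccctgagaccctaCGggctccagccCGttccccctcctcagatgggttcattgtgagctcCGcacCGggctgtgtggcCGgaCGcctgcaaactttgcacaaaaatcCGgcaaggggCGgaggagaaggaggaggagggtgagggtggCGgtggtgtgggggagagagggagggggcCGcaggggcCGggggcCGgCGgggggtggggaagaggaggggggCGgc
Zfp281: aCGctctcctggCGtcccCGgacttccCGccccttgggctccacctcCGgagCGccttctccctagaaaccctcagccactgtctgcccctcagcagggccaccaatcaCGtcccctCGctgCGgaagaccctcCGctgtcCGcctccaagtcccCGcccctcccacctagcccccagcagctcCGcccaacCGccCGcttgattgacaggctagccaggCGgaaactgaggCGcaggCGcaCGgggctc
Zfp534: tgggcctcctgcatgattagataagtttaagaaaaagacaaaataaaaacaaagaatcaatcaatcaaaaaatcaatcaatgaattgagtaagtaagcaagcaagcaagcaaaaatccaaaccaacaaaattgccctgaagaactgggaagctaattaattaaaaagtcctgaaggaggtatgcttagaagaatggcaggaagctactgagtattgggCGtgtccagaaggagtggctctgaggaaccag
The Zfp523 window held 27 CG, more than 91.8% of genes, and its base composition was 70.0% G or C. Zfp281 held 19 CG and Zfp423 18, more than 80.5% and 78.4% of genes. The Zfp534 window held 1 CG at 38.0% G or C, and 8.27% of genes had fewer. It had the fewest CG among windows of members named in the genotype comparisons. Others with a KRAB box held 5 (Zfp157), 6 (Zfp936), 9 (Zfp946) and 13 (Zfp317). Without the box, Zfp365 held 6, Zfp770 11 and Zfp598 20. None of the 4 windows matched the other motifs, which says only that those letters are not in these bases.

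Levels compared between genes were scaled to exon length. Over the 4 groups the members averaged 0.758 to 26.6 CPM per kb, with a median of 3.05. The median was 2.83 CPM per kb in the 90 members with a KRAB box and 3.25 in the 98 without. Zfp106, a nuclear RNA-binding protein, stood highest at 27.3 ± 1.18 CPM per kb in WT endoderm and 27.5 ± 1.27 in arid4b∆ mesoderm (SD, n = 3). Exons of another gene overlap 26.1% of its length. Zfp207, a spindle protein that loads the checkpoint protein Bub3, followed with 24.8 ± 1.97 CPM per kb in WT endoderm and 22.8 ± 0.781 in arid4b∆ mesoderm. The next 3, Zfp869, Zfp534 and Zfp266, all have a KRAB box. In WT endoderm they were at 15.2 ± 1.45, 9.58 ± 1.14 and 17.6 ± 1.67 CPM per kb, and in WT mesoderm at 18.5 ± 2.85, 17.6 ± 3.31 and 12.9 ± 0.916, so their order was not the same in the 2 lineages.

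The members' summed level was 4269 to 4442 CPM in WT endoderm and 4253 to 4570 in arid4b∆ endoderm, and 4332 to 4564 CPM in WT mesoderm and 4424 to 4578 in arid4b∆ mesoderm. In both lineages the ranges of the 2 genotypes overlapped. The members with a KRAB box summed to 1634 ± 73.7 CPM in WT endoderm, 1639 ± 44.0 in arid4b∆ endoderm, 1704 ± 98.3 in WT mesoderm and 1680 ± 77.1 in arid4b∆ mesoderm. Those without it summed to 2705 to 2783 CPM in WT endoderm and 2655 to 2888 in arid4b∆ endoderm, which overlapped. In mesoderm they summed to 2661 to 2765 CPM in WT and 2784 to 2803 in arid4b∆ libraries, which did not overlap. Zfp462 is among these 98 members, and its mesoderm levels, given below, lie further apart between genotypes than these sums do. The sums were not taken without it, so their gap does not show a rise shared by the 98 members. In mesoderm 45 of the 98 had a log2 fold change above 0 and 53 below, with a median of -0.02.

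The first question was which members differ between arid4b∆ and WT cells of the same lineage. In endoderm, 9 of 189 members (4.76%) passed edgeR's quasi-likelihood test with an adjusted p under 0.05, 3 higher and 6 lower in arid4b∆. Of all 11635 genes tested 12.7% passed, 5.78% higher and 6.92% lower. Among tested genes with a summed count of at least 300 the share was 13.3%, with counts not otherwise matched to the members'. In mesoderm, 21 members (11.1%) passed, 12 higher and 9 lower. Of all genes 19.1% passed, 8.97% higher and 10.1% lower, and of those with a sum of at least 300 the share was 21.1%. In 39 members (20.6%, against 30.2% of all genes) the arid4b∆ and WT endoderm libraries did not overlap, and in mesoderm this held for 54 members (28.6%, against 32.8%). The estimated difference was under 1.5-fold for 93.1% of members in endoderm and 89.9% in mesoderm, against 84.0% and 79.8% of all genes. The median log2 fold change was -0.0046 in endoderm and -0.058 in mesoderm, with medians of -0.0036 and 0.0075 over all genes. Higher calls in endoderm numbered 6 without arid4b∆ endoderm library 1 and 5 without WT mesoderm library 3, and lower calls numbered 3 without library 2 or 3 of either endoderm group. Lower calls in mesoderm numbered 17 without WT mesoderm library 1.

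**Figure D1:**
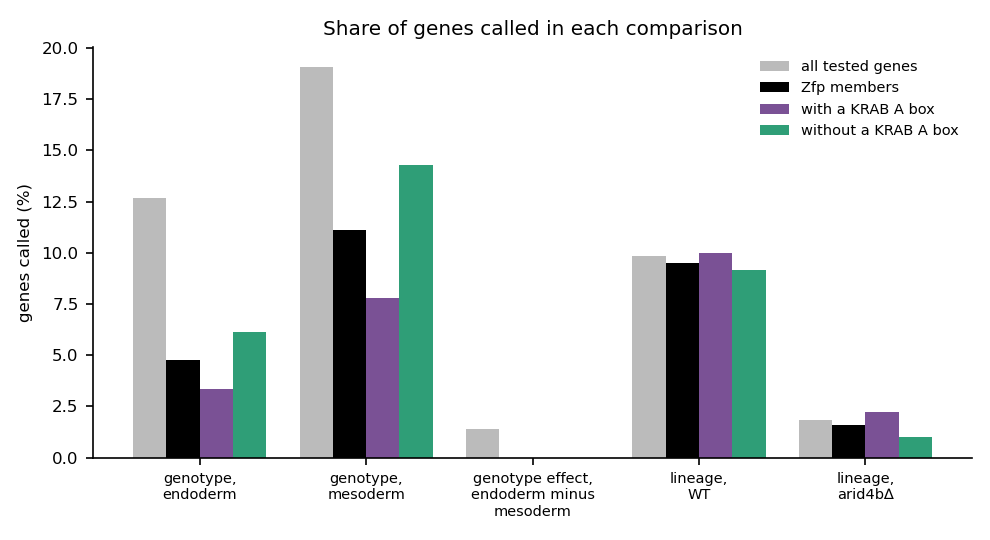
Share of genes called (adjusted p under 0.05, edgeR) in each comparison, in percent, for all 11635 tested genes, the 189 Zfp members, the 90 with a KRAB A box and the 98 without. In the genotype comparisons the members' bars stand below that of all genes (4.76% against 12.7% in endoderm, 11.1% against 19.1% in mesoderm), and in the WT lineage comparison they stand beside it (9.52% against 9.84%).

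Of the called members, 5 were called in both lineages, each in the same direction: Zfp462 was higher and Zfp523, Zfp516, Zfp704 and Zfp362 were lower in arid4b∆ cells. They made up 55.6% of the endoderm calls and 23.8% of the mesoderm calls, against 57.4% and 38.1% over all genes. The 2 genotype comparisons use different libraries, but all 12 libraries were fitted together. They share an estimate of the spread and are not fully independent. None of these 5 has a KRAB box. Of the 16 members called in mesoderm only, 14 had a difference of the same sign in endoderm, as did all 4 called in endoderm only when looked up in mesoderm. Over all genes these shares were 85.6% and 83.8%.

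**Figure D2:**
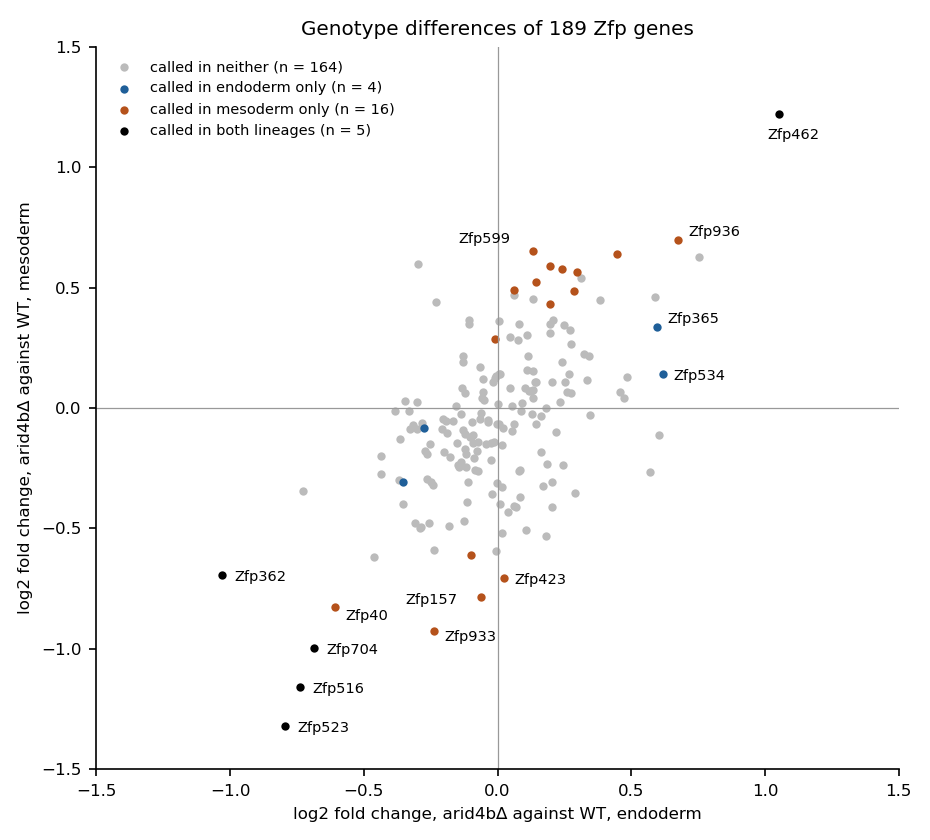
Log2 fold change between arid4b∆ and WT in endoderm (x axis) and in mesoderm (y axis) for 189 Zfp members, coloured by the lineage in which a member was called. The 5 members called in both lineages lie at the corners, Zfp462 at 1.05 and 1.22 and Zfp523, Zfp516, Zfp704 and Zfp362 at the lower left.

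Zfp462, a large protein that binds the heterochromatin methyltransferases G9a and GLP in embryonic stem cells, showed the largest rise in both lineages (Entrez 242466, chr4:54944491-55083563, + strand, GRCm38.p6). It was at 64.8, 65.5 and 61.2 CPM in WT endoderm and 111, 146 and 139 CPM in arid4b∆ endoderm. In mesoderm it was at 57.8, 38.8 and 46.8 CPM in WT and 120, 114 and 107 CPM in arid4b∆ libraries. Every arid4b∆ library lay above every WT library in both lineages. The rise was 2.08-fold in endoderm (log2 1.05 ± 0.12 SE, adjusted p = 1.11e-06) and 2.33-fold in mesoderm (log2 1.22 ± 0.12, adjusted p = 4.81e-07), and both calls held in each of 21 alternative settings, in which the adjusted p reached at most 0.00281 in endoderm and 0.000292 in mesoderm.

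Zfp523, the mouse counterpart of human ZNF76 and a relative of the promoter-binding factor Zfp143, showed the largest fall of any member in mesoderm (chr17:28177196-28205886, + strand). It was at 8.76, 13.4 and 11.98 CPM in WT mesoderm and 5.89, 3.70 and 3.75 CPM in arid4b∆ mesoderm. In endoderm it was at 9.92, 9.12 and 9.35 CPM in WT and 7.87, 4.42 and 4.67 CPM in arid4b∆ libraries. The genotypes did not overlap in either lineage. The log2 fold change was -1.32 ± 0.27 in mesoderm (adjusted p = 0.00129) and -0.79 ± 0.25 in endoderm (adjusted p = 0.0385). The endoderm call was lost without WT endoderm library 1, 2 or 3 (adjusted p = 0.0968, 0.0996 and 0.0832), without arid4b∆ endoderm library 2 or 3 (0.199 and 0.145), and in DESeq2 (0.126).

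Zfp516, which activates the heat-producing gene Ucp1 in brown fat, fell in both lineages. It was at 17.5, 16.5 and 14.7 CPM in WT endoderm, 11.7, 9.85 and 8.12 in arid4b∆ endoderm, 22.3, 21.7 and 29.7 in WT mesoderm and 11.2, 11.4 and 11.2 in arid4b∆ mesoderm. Again no arid4b∆ library reached a WT library of its lineage. The log2 fold change was -0.74 ± 0.18 in endoderm (adjusted p = 0.00666) and -1.16 ± 0.17 in mesoderm (adjusted p = 5.41e-05). Without arid4b∆ endoderm library 3 the endoderm adjusted p was 0.0512.

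Zfp704, a relative of the glucose transporter enhancer factor Slc2a4rg, was at 34.4, 33.5 and 33.7 CPM in WT endoderm and 22.4, 22.9 and 17.9 in arid4b∆ endoderm. It was at 40.5, 37.2 and 45.9 CPM in WT mesoderm and 20.5, 17.3 and 24.9 in arid4b∆ mesoderm. The groups were apart in both lineages, with log2 fold changes of -0.69 ± 0.14 (adjusted p = 0.00152) and -0.997 ± 0.14 (adjusted p = 2.91e-05). Exons of another gene, C030034L19Rik, overlap 16.6% of its length, and reads there could be counted for either.

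Zfp362, a relative of the nuclear matrix factor Zfp384, showed the largest fall of any member in endoderm (chr4:128773085-128806112, - strand). It was at 14.6, 12.2 and 13.3 CPM in WT endoderm and 7.29, 6.45 and 5.88 in arid4b∆ endoderm, a log2 fold change of -1.03 ± 0.19 (adjusted p = 0.000921). In mesoderm it was at 8.51, 10.3 and 9.96 CPM in WT and 4.49, 6.79 and 6.42 in arid4b∆ libraries (-0.69 ± 0.22, adjusted p = 0.0318). The genotypes did not overlap in either lineage. The mesoderm call was lost without WT mesoderm library 2 or 3 or arid4b∆ mesoderm library 1 (adjusted p = 0.0619, 0.124 and 0.143), in DESeq2 (0.134), without the low-count filter (0.0584) and with only the mesoderm libraries fitted (0.0759).

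**Figure D3:**
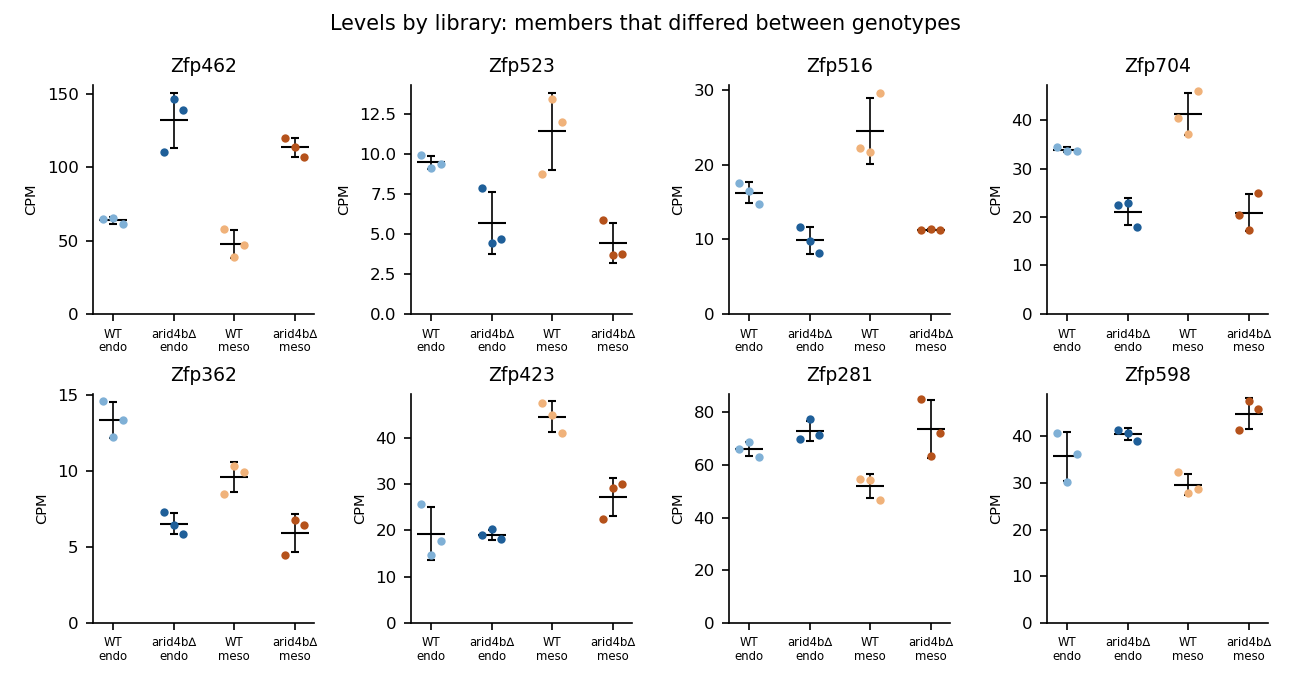
CPM in each library (points) with the mean and SD of 3 libraries (black) for 8 members that differed between genotypes. Zfp462 stands higher in both arid4b∆ groups, Zfp523, Zfp516, Zfp704 and Zfp362 stand lower in both, Zfp423 stands apart in WT mesoderm at 41.0 to 47.5 CPM, and Zfp281 and Zfp598 have their lowest means in WT mesoderm.

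Members called in endoderm only were Zfp534 and Zfp365, which rose, and Zfp317 and Zfp568, which fell. Zfp534, a KRAB member, was at 25.7, 25.8 and 31.5 CPM in WT endoderm and 39.6, 39.4 and 47.5 in arid4b∆ endoderm. The groups did not overlap, and the log2 fold change was 0.62 ± 0.14 (adjusted p = 0.00383). In mesoderm it was 0.14 ± 0.13 (adjusted p = 0.501). Of the 50-base stretches in its transcripts, 68.4% also occur in transcripts of other genes, so its count may hold reads of related genes. Zfp365, a protein of neurons and of recovery from replication stress, was at 20.4, 17.4 and 15.0 CPM in WT and 27.1, 25.1 and 27.6 in arid4b∆ endoderm (log2 0.59 ± 0.19, adjusted p = 0.046). Its groups did not overlap, and the call was lost in DESeq2 (0.074) and without WT endoderm library 2 or 3, any arid4b∆ endoderm library or arid4b∆ mesoderm library 3 (0.0508 to 0.166).

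Zfp317, a KRAB member, was at 39.1, 38.2 and 41.9 CPM in WT endoderm and 30.3, 32.3 and 30.2 in arid4b∆ endoderm (log2 -0.35 ± 0.10, adjusted p = 0.0226). In mesoderm it was at 36.0, 36.7 and 36.0 CPM in WT and 28.6, 29.0 and 30.0 in arid4b∆ (log2 -0.31 ± 0.11, adjusted p = 0.0503). No library of either genotype overlapped the other in either lineage. The endoderm call was lost without any 1 of the 6 endoderm libraries (adjusted p = 0.05 to 0.0908), in DESeq2 (0.149) and without the low-count filter (0.0688). Zfp568, a KRAB repressor of a placental transcript of Igf2, was at 82.9, 82.6 and 87.6 CPM in WT and 70.0, 72.7 and 66.1 in arid4b∆ endoderm (log2 -0.27 ± 0.09, adjusted p = 0.0463). Its groups did not overlap, and the call was lost without any 1 of 10 libraries, namely every endoderm library, WT mesoderm library 2 and every arid4b∆ mesoderm library (0.0575 to 0.182), in DESeq2 (0.143), without the low-count filter (0.101) and with Rn45s kept (0.0551).

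In mesoderm the rises other than Zfp462 were smaller, and the members whose calls held with each library left out were Zfp598, Zfp608 and Zfp281. Zfp598, the ubiquitin ligase that marks collided ribosomes, was at 32.3, 27.9 and 28.7 CPM in WT mesoderm and 41.2, 47.5 and 45.8 in arid4b∆ mesoderm (log2 0.59 ± 0.12, adjusted p = 0.00155). Zfp608, a relative of the transcription cofactor Zfp609, was at 32.5, 35.1 and 28.7 CPM in WT and 50.8, 47.5 and 41.5 in arid4b∆ libraries (0.56 ± 0.13, adjusted p = 0.00352). Zfp281, a GC-box binding factor of the exit from pluripotency, was at 54.8, 54.3 and 46.6 CPM in WT and 85.2, 63.6 and 72.3 in arid4b∆ libraries (0.52 ± 0.11, adjusted p = 0.00188). For these 3 the mesoderm groups did not overlap. Their endoderm log2 fold changes were 0.20 ± 0.12, 0.30 ± 0.12 and 0.14 ± 0.10, with adjusted p of 0.31, 0.103 and 0.428.

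Rises in mesoderm that depended on single libraries were those of Zfp936, Zfp599, Zfp946 and Zfp770. Zfp936, a KRAB member of which 15.6% of 50-base stretches are shared with other genes, was at 13.5, 10.3 and 17.6 CPM in WT mesoderm and 18.2, 22.5 and 30.0 in arid4b∆ mesoderm (log2 0.70 ± 0.24, adjusted p = 0.0439). The call was lost without WT endoderm library 1, WT mesoderm library 1 or 2, or arid4b∆ mesoderm library 2 or 3 (0.0512 to 0.238), in DESeq2 (0.0708) and in limma-voom (0.051). Zfp599, also with a KRAB box, was at 8.76, 12.4 and 10.1 CPM in WT and 16.3, 14.5 and 16.9 in arid4b∆ libraries (0.65 ± 0.18, adjusted p = 0.0127). Without WT mesoderm library 1 or 3 its adjusted p was 0.0501, and in DESeq2 it was 0.0688. Zfp946, also a KRAB member, was at 16.3, 15.5 and 19.1 CPM in WT and 32.3, 21.0 and 24.4 in arid4b∆ libraries (0.58 ± 0.18, adjusted p = 0.0259), and lost its call without WT mesoderm library 1 or 2 or arid4b∆ mesoderm library 1 (0.0639, 0.0688 and 0.19). Zfp770, which has no KRAB box, was at 5.25, 6.201 and 5.57 CPM in WT and 9.25, 8.33 and 8.56 in arid4b∆ libraries (0.64 ± 0.22, adjusted p = 0.0486), a call lost without any 1 of 11 libraries, all except WT endoderm library 2 (0.0501 to 0.136), with a replicate block (0.062), in DESeq2 (0.219), without the low-count filter (0.114) and with only the mesoderm libraries fitted (0.0883). In each of these 4 the lowest arid4b∆ mesoderm library lay above the highest WT mesoderm library. Zfp930, Zfp259, Zfp553 and Zfp687 made up the other calls, with log2 fold changes of 0.29 to 0.49. Without WT mesoderm library 3 the adjusted p of Zfp930 was 0.0771 and that of Zfp259, also called Zpr1 and known to bind a translation elongation factor, was 0.109. The latter was 0.0641 and 0.0702 without arid4b∆ mesoderm library 1 or 2, and 0.0785 in DESeq2.

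Among the falls in mesoderm, Zfp423, a cofactor of BMP-activated Smad proteins in neural and fat-cell precursors, was at 47.5, 45.0 and 41.0 CPM in WT mesoderm and 22.4, 29.0 and 30.0 in arid4b∆ mesoderm (chr8:87661810-87962053, - strand). The groups were well apart, with a log2 fold change of -0.71 ± 0.16 (adjusted p = 0.00265) that held with each library left out. Its endoderm values were 25.7, 14.6 and 17.6 CPM in WT and 18.9, 20.2 and 18.1 in arid4b∆ libraries, which overlapped (log2 0.03 ± 0.17, adjusted p = 0.956). Zfp157, a KRAB member, was at 20.0, 26.4 and 30.9 CPM in WT mesoderm and 14.9, 14.5 and 15.8 in arid4b∆ mesoderm (-0.79 ± 0.18, adjusted p = 0.003). The groups did not overlap, and without WT mesoderm library 3 the adjusted p was 0.0542.

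Zfp40, also a KRAB member, was at 10.01, 11.4 and 9.96 CPM in WT mesoderm and 7.29, 4.94 and 5.08 in arid4b∆ mesoderm (log2 -0.83 ± 0.24, adjusted p = 0.0178). Its call was lost without arid4b∆ mesoderm library 2 or 3 (0.0756 and 0.0768) and in DESeq2 (0.0732). Zfp865, with 20 fingers and no KRAB box, was at 19.8, 19.1 and 17.2 CPM in WT and 13.2, 11.7 and 11.5 in arid4b∆ libraries (-0.61 ± 0.17, adjusted p = 0.015). Neither gene's groups overlapped. Other genes' exons overlap 28.4% of the length of Zfp865, and its call was lost without arid4b∆ mesoderm library 3 (0.0564) and in DESeq2 (0.0642). The remaining called member, Zfp933, was at 6.51, 17.6 and 15.5 CPM in WT and 6.73, 6.17 and 7.23 in arid4b∆ libraries, so that WT library 1 lay among the arid4b∆ values (log2 -0.93 ± 0.30, adjusted p = 0.0346). Its call was lost without WT mesoderm library 2 or 3 or any arid4b∆ mesoderm library (0.0667 to 0.245), in limma-voom (0.104) and with only the mesoderm libraries fitted (0.052).

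Whether the genotype effect differed between lineages was tested as an interaction. No member passed in edgeR, against 1.4% of all genes, and none passed in DESeq2 or limma-voom. At an unadjusted p under 0.05 there were 13 members (6.88%), against 10.4% of all genes. The smallest p belonged to Zfp423 (endoderm minus mesoderm, log2 0.73 ± 0.23, unadjusted p = 0.00511, adjusted p = 0.163), followed by Zfp157 (0.72 ± 0.25, 0.00909, 0.216). The members called in 1 lineage alone were thus not shown to differ between lineages. Interaction calls numbered 1 without WT endoderm library 1, 2 without WT mesoderm library 1 and 1 without the low-count filter.

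Members were next read by role. The role lists were chosen with earlier results of these data known, so their counts and medians are descriptions and not independent findings. For the counts below, 5.78% of all genes were called higher and 6.92% lower in endoderm, and 8.97% higher and 10.1% lower in mesoderm. Of 7 members tied to pluripotency, 1 rose in endoderm, Zfp462, and 3 rose in mesoderm, Zfp462, Zfp281 and Zfp553, and none fell. The median log2 fold changes of these 7 were 0.14 and 0.19. Zfp553 went from 18.01, 21.2 and 18.4 CPM in WT mesoderm to 28.3, 22.8 and 25.2 in arid4b∆ mesoderm (0.43 ± 0.14, adjusted p = 0.0346), without overlap, and was lost without WT mesoderm library 1 or 3 or arid4b∆ mesoderm library 1 or 3 (0.0704 to 0.153), in DESeq2 (0.137), without the low-count filter (0.054) and with only the mesoderm libraries fitted (0.0687). The other 4 did not pass. Zfp143, which binds promoters, had log2 fold changes of -0.13 ± 0.15 in endoderm and 0.19 ± 0.15 in mesoderm, Zfp217, a partner of CtBP, 0.15 ± 0.09 and 0.11 ± 0.09, Zfp706 0.14 ± 0.10 and 0.11 ± 0.10, and Zfp710 0.12 ± 0.13 and 0.07 ± 0.13.

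Of 6 members tied to neural and mesenchymal cells, 1 rose and 1 fell in endoderm (Zfp365 and Zfp704) and 2 fell in mesoderm (Zfp423 and Zfp704), with median log2 fold changes of 0.07 and -0.56. Zfp521, a relative of Zfp423, had -0.46 ± 0.22 in endoderm and -0.62 ± 0.26 in mesoderm and passed in neither (adjusted p = 0.189 and 0.109, the latter 0.0303 with a replicate block). Zfp467 had 0.11 ± 0.24 and -0.51 ± 0.25, and Zfp219 had 0.20 ± 0.13 and 0.11 ± 0.14.

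Among 13 members of chromatin complexes, Zfp516 fell in both lineages and Zfp687, a partner of the chromatin reader Zmynd8, rose in mesoderm (0.29 ± 0.10, adjusted p = 0.0445). That call was lost without library 2 or 3 of either endoderm group, any WT mesoderm library or arid4b∆ mesoderm library 1 or 2 (0.0528 to 0.161), with a replicate block (0.0521), in DESeq2 (0.162) and limma-voom (0.0502), without the low-count filter (0.0962) and with only the mesoderm libraries fitted (0.0922). Its fellow Zmynd8 partners Zfp592 and Zfp532 had mesoderm log2 fold changes of -0.23 ± 0.14 and 0.14 ± 0.16 and did not pass. The medians of the 13 were 0.05 in endoderm and 0.01 in mesoderm. In endoderm, Zfp609, a partner of the cohesin loader Nipbl, had 0.27 ± 0.09 with an adjusted p of 0.0531, or 0.0457 with a replicate block. The remaining members, Zfp644, Zfp451, Zfp335, Zfp827, Zfp277, Zfp131, Zfp148 and Zfp91, lay between -0.18 and 0.36 in both lineages.

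Of 7 members that act on RNA or ribosomes, only Zfp598 passed, in mesoderm. Zfp36, which destabilises messages with AU-rich elements, had log2 fold changes of -0.30 ± 0.28 and -0.09 ± 0.29 in endoderm and mesoderm, and Zfp622, a ribosome assembly factor, 0.25 ± 0.16 and 0.35 ± 0.17. Zfp326 had -0.02 ± 0.14 and -0.36 ± 0.15, Zfp346 had 0.33 ± 0.15 and 0.12 ± 0.16, Zfp830 had -0.02 ± 0.19 and 0.11 ± 0.20, and Zfp106 had -0.05 ± 0.09 and 0.12 ± 0.09. Of 5 members that silence retroelements or guard imprints, only Zfp568 passed, in endoderm. Zfp809, which silences murine leukaemia proviruses, had log2 fold changes of -0.0006 ± 0.17 and -0.07 ± 0.18. Zfp445, which protects imprinted loci, had -0.06 ± 0.12 and 0.17 ± 0.12, Zfp932 had -0.13 ± 0.17 and 0.22 ± 0.18, and Zfp617 had 0.04 ± 0.15 and -0.43 ± 0.15. Neither of 2 members of mitosis and genome repair passed: Zfp207 had -0.09 ± 0.10 and -0.15 ± 0.10, and Zfp668 had 0.47 ± 0.19 and 0.04 ± 0.20.

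KRAB members were called at 3 of 90 in endoderm (3.33%) and 7 of 90 in mesoderm (7.78%), and members without the box at 6 of 98 (6.12%) and 14 of 98 (14.3%), against 12.7% and 19.1% of all genes. In mesoderm the median log2 fold change was -0.10 over KRAB members, of which 56 of 90 were below 0, and -0.02 over the others, of which 53 of 98 were, while 49.2% of all genes were below 0. Among the 21 tested genes of the KRAB corepressor machinery, 1 was called higher in endoderm, the histone chaperone Daxx (log2 0.58), and in mesoderm Daxx was higher (0.69) and the heterochromatin protein Cbx5 lower (-0.45). Trim28 itself was at 360 ± 15.3 CPM in WT and 356 ± 15.3 in arid4b∆ endoderm, and at 367 ± 24.4 and 403 ± 39.8 CPM in mesoderm (adjusted p = 0.948 and 0.365). Setdb1 was at 52.9 ± 6.40 and 58.6 ± 3.14 CPM in endoderm and 54.8 ± 3.55 and 63.5 ± 1.94 in mesoderm (adjusted p = 0.426 and 0.182).

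Many members lie beside each other. Joining members less than 500 kb apart gave 31 neighbourhoods of at least 2, which held 106 members, 74 of them with a KRAB box. In 5 neighbourhoods there were at least 5 members, 38 in all. The largest, chr17:21008941-23193284 from Zfp160 to Zfp40, held 13 members, all with the box. Its genotype log2 fold changes ran from -0.61 to 0.57 in endoderm (median -0.04) and from -0.83 to 0.58 in mesoderm (median -0.19), and the called extremes in mesoderm, Zfp946 up and Zfp40 down, both belong to it. The 7 members at chr7:29768552-30169775, from Zfp84 to Zfp146, ran from -0.27 to 0.07 in endoderm with 6 of 7 below 0, and Zfp568 was called. The 6 members at chr6:47877209-48534832, from Zfp282 to Zfp862, were below 0 in 5 of 6 cases in endoderm and in all 6 in mesoderm, with medians of -0.26 and -0.08 and no call. From Zfp871 to Zfp414 on chr17, 3 of 7 members were above 0 in each lineage. From Zfp553 to Zfp646 on chr7, 2 of 5 were above 0 in endoderm and 3 of 5 in mesoderm. Over all genes, 50.5% were below 0 in endoderm and 49.2% in mesoderm. No neighbourhood had more than 2 called members in either genotype comparison.

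**Figure D4:**
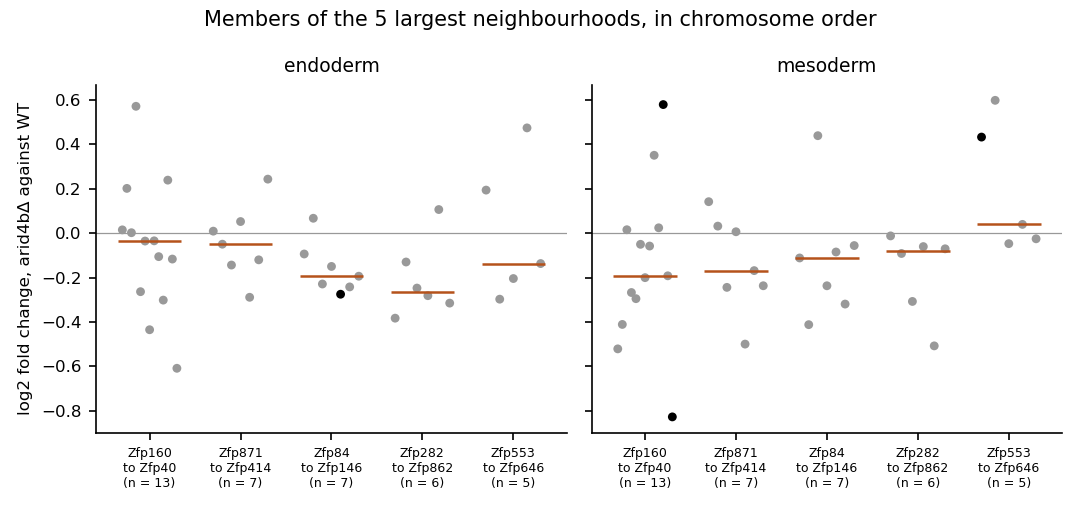
Log2 fold change between arid4b∆ and WT in endoderm (left) and mesoderm (right) for each member of the 5 neighbourhoods with at least 5 members, in chromosome order, with called members in black and the median as a line. Within the neighbourhood from Zfp160 to Zfp40, neighbours spread over both directions in mesoderm, from -0.83 to 0.58.

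Members were compared between lineages within each genotype. In WT cells 18 of 189 (9.52%) were called, 8 higher and 10 lower in endoderm than in mesoderm. Of all genes 9.84% were called, 4.41% higher and 5.43% lower. In arid4b∆ cells 3 members (1.59%) were called, 1 higher and 2 lower, against 1.85% of all genes, 0.945% higher and 0.902% lower. Both shares were close to those of all genes. The WT comparison shares its libraries with both genotype comparisons, so values of a member are given side by side. Higher calls in WT numbered 3 without WT endoderm library 2, and 4 without WT endoderm library 3 or WT mesoderm library 3, and lower calls numbered 6 without WT endoderm library 2 and 3 without WT mesoderm library 3.

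Zfp936 had the largest lineage difference of any member. It was at 4.96, 3.44 and 8.50 CPM in WT endoderm, 13.5, 10.3 and 17.6 in WT mesoderm, 10.5, 6.28 and 9.54 in arid4b∆ endoderm and 18.2, 22.5 and 30.0 in arid4b∆ mesoderm. Mesoderm lay above endoderm in every library of both genotypes. The log2 fold change, endoderm against mesoderm, was -1.44 ± 0.29 in WT (adjusted p = 0.00179) and -1.47 ± 0.25 in arid4b∆ cells (adjusted p = 0.00264). Zfp600, a KRAB member of which 81.2% of 50-base stretches occur in other genes, was at 10.5, 16.3 and 18.1 CPM in WT endoderm and 32.5, 18.6 and 46.8 in WT mesoderm (-1.21 ± 0.27, adjusted p = 0.00469). In arid4b∆ cells it was at 25.9, 25.3 and 25.6 CPM in endoderm and 50.2, 34.3 and 77.3 in mesoderm (-1.09 ± 0.24, adjusted p = 0.0192). Its lineages did not overlap in either genotype, but its calls were lost without mesoderm library 3 of the genotype (0.102 in WT and 0.233 in arid4b∆), without arid4b∆ endoderm library 2 or 3 (0.0984 and 0.0643, in arid4b∆) and in DESeq2 (0.051 and 0.185).

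Zfp423 and Zfp534 were also lower in WT endoderm. Zfp423 was at 14.6 to 25.7 CPM in WT endoderm against 41.0 to 47.5 in WT mesoderm (log2 -1.24 ± 0.16, adjusted p = 1.43e-05), and in arid4b∆ cells at 18.1 to 20.2 against 22.4 to 30.0 (-0.50 ± 0.17, adjusted p = 0.151). Zfp534 was at 25.7 to 31.5 CPM in WT endoderm against 40.3 to 58.9 in WT mesoderm (-0.89 ± 0.14, adjusted p = 0.000115), and in arid4b∆ cells at 39.4 to 47.5 against 52.7 to 58.3 (-0.41 ± 0.13, adjusted p = 0.111). For both genes the lineages were apart in each genotype, and the difference between the WT and arid4b∆ lineage effects is the interaction given above, which neither passed. Zfp157 was at 14.0 to 17.5 CPM in WT endoderm against 20.0 to 30.9 in WT mesoderm (-0.70 ± 0.17, adjusted p = 0.00869, 0.147 without WT mesoderm library 3).

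On the endoderm side, Zfp946 was at 27.1, 37.8 and 32.3 CPM in WT endoderm and 16.3, 15.5 and 19.1 in WT mesoderm (log2 0.92 ± 0.17, adjusted p = 0.000741). Zfp771 was at 9.34, 9.46 and 7.37 CPM in WT endoderm and 3.25, 4.65 and 4.73 in WT mesoderm (1.06 ± 0.26, adjusted p = 0.008, 0.0549 without WT endoderm library 2). Zfp266, with a KRAB box, was at 110, 130 and 131 CPM against 95.6, 92.5 and 83.2 (0.46 ± 0.10, adjusted p = 0.0027). In these 3 the WT lineages did not overlap. Zfp608 was at 41.6 to 48.7 CPM in WT endoderm and 28.7 to 35.1 in WT mesoderm (0.49 ± 0.13, adjusted p = 0.014), a call lost without WT endoderm library 1 (0.068) or WT mesoderm library 3 (0.128).

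Zfp827, which brings the NuRD complex to telomeres, was higher in endoderm in both genotypes. It was at 15.5, 18.9 and 20.1 CPM in WT endoderm and 12.3, 9.82 and 12.3 in WT mesoderm (log2 0.63 ± 0.16, adjusted p = 0.0113). In arid4b∆ cells it was at 18.7, 21.7 and 19.3 CPM in endoderm and 11.5, 12.3 and 12.6 in mesoderm (0.72 ± 0.16, adjusted p = 0.0164). No lineage overlapped the other in either genotype. The WT call was lost without WT endoderm library 2 or 3 (0.0629 and 0.0594) and in DESeq2 (0.075), and the arid4b∆ call without arid4b∆ endoderm library 2 or any arid4b∆ mesoderm library (0.0515 to 0.108) and in DESeq2 (0.0856).

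**Figure D5:**
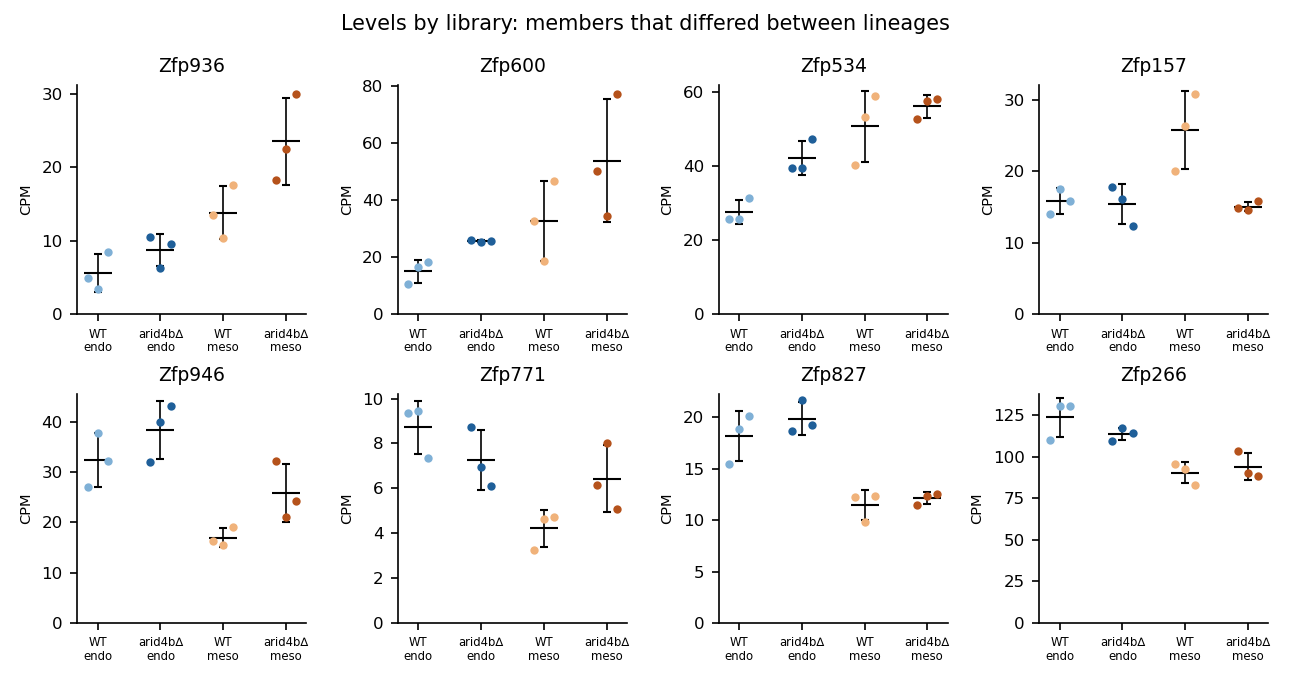
CPM in each library (points) with the mean and SD of 3 libraries (black) for 8 members called between WT lineages. Zfp936, Zfp600, Zfp534 and Zfp157 (top row) stand higher in WT mesoderm than in WT endoderm, and Zfp946, Zfp771, Zfp827 and Zfp266 (bottom row) stand lower there.

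Over these 4 comparisons 34 members were called at least once and 155 in none, and a member that did not pass may still differ by less than these libraries can resolve. Of the 138 Zfp genes below the minimum count, 96 could be tested, of which 3 were called in endoderm (3.12%, against 12.7% of all genes) and 5 in mesoderm (5.21%, against 19.1%), all lower in arid4b∆. Called or not, the log2 fold changes of the 96 ran from -1.96 to 1.01 in endoderm and from -1.71 to 1.07 in mesoderm. The largest falls among tested Zfp genes thus lay outside the members. Other zinc finger families were called in mesoderm at 1 of 30 genes (Zbtb), 2 of 13 (Zscan and Zkscan) and 5 of 12 (Klf), beside the 19.1% of all genes, and whether these shares differ from the Zfp members' was not tested.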

How the data were processed

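Total RNA was depleted of ribosomal RNA and sequenced on an Illumina instrument after directional library preparation, per the labels' protocols. The authors deposited a table of whole-number read counts per gene for all 12 libraries. The build mm10 and the tools STAR and DESeq2 are named in the submitters' processing notes. Not given in the sources used here are the versions, the counting program, the annotation and the use of strand. In the column of WT endoderm library 1, 26 of 19680 genes held a date in place of a count and were left out. Rn45s, 79.7% to 82.4% of each library, did not enter library sizes or tests. Mir6236 and Lars2, with 49.7% to 69.5% of the rest, were kept.

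All 12 libraries were fitted with 4 group means in edgeR 4.0.16 (TMM scaling, filterByExpr with a minimum count of 10, quasi-likelihood test), and CPM used the same scaled library sizes. P-values were adjusted by Benjamini-Hochberg over 11635 genes, with a threshold of 0.05. The script was tested on simulated counts. Alternatives were RLE scaling, no filter, DESeq2 1.42.0, limma-voom (limma 3.58.1), a test against 1.5-fold, other library sizes, fitting only the groups compared, a replicate block, each library left out, and minimum sums of 150 and 600. Groups and replicate numbers came from the sample titles.

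Named members were the 8 largest rises and falls in each genotype comparison and the 5 largest in each lineage comparison and the interaction, among called members whose groups do not overlap, all members of the role lists, the 5 of highest level per length and the genes beside the minimum. Zfp933, Zfp930, Zfp259, Zfp607, Zfp53, Daxx and Cbx5 lie outside this rule and were named after their values were seen. The members and lists were chosen with earlier results of these data known. Positions and promoters are from RefSeq GRCm38.p6, matched by symbol or gene identifier. Fingers, KRAB boxes, exon overlaps and shared 50-base stretches were computed from GENCODE models of GRCm38, in place of RefSeq proteins.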

Additional observations from a re-analysis of the deposited data

How the results depend on the processing

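All calls of members in the 4 comparisons, named above or not, were recomputed under other settings. Of these recomputed values, 858 kept the call, 213 lost it and none reversed. Of the uncalled values recomputed, 13 gained a call and 1478 did not, and 51 of the latter changed sign. The scaling alternatives moved the median over all genes from -0.0036 to at most 0.0063 in endoderm, and it stayed between 0.0048 and 0.0088 in mesoderm. In edgeR's test against a 1.5-fold change, calls fell from 3 higher and 6 lower to 1 and 0 in endoderm, from 12 and 9 to 1 and 3 in mesoderm, from 8 and 10 to 0 and 2 between WT lineages, and from 1 and 2 to 0 and 0 between arid4b∆ lineages. DESeq2 called 5 members in endoderm, 3 of them lower, and 12 in mesoderm, 6 of them higher. It called 4 higher and 5 lower between WT lineages, and 0 higher and 1 lower between arid4b∆ lineages. Without the low-count filter there was 1 higher interaction call, and 3 higher and 4 lower between arid4b∆ lineages. With only the compared groups fitted there were 12 calls in endoderm, 5 of them higher, and 5 between arid4b∆ lineages, 4 of them lower. A minimum summed count of 600 left 5 lower calls in mesoderm. The cause of these changes was not tested.

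With the replicate number as a block, higher calls in endoderm numbered 5, and calls between arid4b∆ lineages numbered 3 higher and 4 lower. The block ended the mesoderm calls of Zfp770 (adjusted p = 0.062) and Zfp687 (0.0521), and Zfp521 in mesoderm (0.0303) and Zfp609 in endoderm (0.0457) passed with it. Deviations of 18 same-numbered pairs correlated at -0.056 to 0.193 (median 0.0785, 16 over 0, 5 over 0.1), against -0.176 to 0.113 in 36 other pairs (median -0.0415, 6 over 0). By their mean correlation, 10 of 12 libraries were closest to those of their own number, a hint from the data and not the design. The labels do not say what the numbers mark, so the main fit had no block. Over all genes the block raised the calls from 1478 to 1807 in endoderm and from 2224 to 2474 in mesoderm. Interaction calls went from 163 to 255, those between WT lineages from 1145 to 1308, and those between arid4b∆ lineages from 215 to 377.

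Leaving out 1 library at a time gave 2 to 6 higher and 3 to 6 lower calls in endoderm, 8 to 12 higher and 6 to 17 lower in mesoderm, and 0 to 2 higher interaction calls. It gave 3 to 9 higher and 3 to 11 lower calls between WT lineages, and 0 to 3 higher and 1 to 4 lower between arid4b∆ lineages. Calls kept without each library numbered 4 of 9, 8 of 21, 5 of 18 and 1 of 3 in these comparisons other than the interaction. Depth limits low members most: 3 counts correspond to 0.506 to 1.55 CPM, and only counting error is covered by that figure.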
